A study of Saccharomyces cerevisiae with 8 samples.

Results

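The transcriptome of a *Saccharomyces cerevisiae* double mutant, *ptc1 ptc6*, was compared with that of its wild-type parent on 4 of the 8 microarrays of the series. The members are the 4 arrays that the labels give to *ptc1 ptc6* against wt. The other 4 arrays compared the *ptc6* single mutant with wt. The *ptc1 ptc6* cells carried *ptc1::nat1* and *ptc6::kanMX4*, the *ptc6* cells carried *ptc6::kanMX4* alone, and all strains, wt included, had the BY4741 background (*MATa*, with deletions of the auxotrophic markers *HIS3*, *LEU2*, *MET15* and *URA3*). Cultures grew at 28 °C in YPD, the rich glucose medium, and were taken in logarithmic growth with no further treatment. Each genotype was 1 strain, so a second change in that strain and the named deletions cannot be told apart. There were 2 biological replicates of *ptc1 ptc6*, each hybridised on 2 arrays with the dyes exchanged.

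Ptc1 and Ptc6 belong to the type 2C protein phosphatases, monomeric enzymes that remove phosphate from serine and threonine and need magnesium or manganese ions. Ptc1 is known for acting on mitogen-activated protein kinase pathways, among them the high-osmolarity (Hog1) and cell wall integrity (Slt2) cascades, and for a role in vacuole inheritance. Ptc6 is found in mitochondria and acts on the pyruvate dehydrogenase complex. In growing yeast, much of the cell's transcription goes to ribosomal protein genes, and stress genes under the transcription factors Msn2 and Msn4 are kept low by nutrient signalling through protein kinase A and TOR.

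Each value was a log2 ratio of *ptc1 ptc6* over wt for 1 open reading frame (ORF), printed as a PCR product, so a positive value means more transcript in *ptc1 ptc6*. Experiments 1 and 2 were biological replicate 1, and experiments 3 and 4 were biological replicate 2. The mutant was labelled with Cy3 in experiments 1 and 3 and with Cy5 in experiments 2 and 4. Of 6212 ORFs in the table, 5059 had a value on at least 1 of these arrays and 3745 on all 4. Experiment 1 held 4050 values and the other 3 arrays held 4620 to 4710. Array values of a gene are given in the order of experiments 1 to 4, and a mean is the mean of the replicate means ± SD (n = 2 biological replicates).

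The same dye, more than the same RNA, brought arrays close to each other. Pearson's r across ORFs was 0.77 and 0.79 between arrays of different replicates with the mutant in the same dye. It was 0.49 and 0.59 between the dye-swapped arrays of 1 replicate, and 0.76 between the replicate means. These are descriptions across ORFs, which are not independent. The dye difference of an ORF, Cy5 minus Cy3, correlated between the replicates with r = 0.63. Averaging each dye pair removed a dye effect only where both arrays had a value. Values on all 4 arrays were held by 182 of the 259 genes called higher and 355 of the 390 called lower. The other called genes had at least 1 replicate mean from a single dye, and 17 were measured with 1 dye alone.

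Many genes known for high expression, such as those of glycolysis, shared a single value within an array, a pattern looked for after the values were seen. The most frequent value, to 3 decimals, was -0.209 on experiment 1 (13 ORFs), -0.164 on experiment 2 (19 ORFs), 0.332 on experiment 3 (15 ORFs) and -0.689 on experiment 4 (13 ORFs). Within 0.01 of these values, 8 ORFs lay on all 4 arrays, and 6 of them were glycolytic genes. At least 2 arrays had 25 such ORFs, among them 8 cytosolic ribosomal protein genes and 9 glycolytic genes. None of the 25 was called. The fit used the mean of each dye pair, and the replicate medians of the glycolysis list were -0.19 and -0.18. The smallest lower call was at -0.3975, so a gene at all 4 shared values could hardly be called. Single-channel intensities were not used here, so whether these spots had reached the limit of the scanner was not tested.

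Both deleted genes gave low values. *PTC1* (YDL006W) had log2 ratios of -1.95, -3.43, -2.32 and -2.54, all 4 below every neighbour measured, with a mean of -2.56 ± 0.18 (adjusted p = 0.000931, limma). *PTC6* (YCR079W) had values on experiments 2 and 3 only, 1 from each replicate and each dye, at -3.16 and -4.73. Its mean was -3.94 ± 1.11, with an adjusted p of 0.00653 by limma. Around *PTC1*, the proteasome gene *RPT2*, the Mediator gene *MED2* and the ATP synthase gene *ATP16* had means of -0.12, 0.30 and -0.07, none called. Next to *PTC6* in the gene table lies *PAT1*, whose product activates mRNA decapping. It read -0.99, -0.82, -0.84 and -0.94, a fall to 0.537 of wt (adjusted p = 0.027, limma), and in *ptc6* cells, which carry the same deletion, its replicate means were -1.11 and -0.53. Beyond *PAT1* on the same side, *FUB1* averaged 0.41 (adjusted p = 0.054, limma). On the other flank, *SRB8* had no value and *AHC2* averaged -0.14.

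The other type 2C phosphatase genes stayed near 0. *PTC2*, *PTC3*, *PTC4* and *PTC7* averaged 0.14, 0.23, 0.02 and 0.13, and of the 7 tested members of the family the 2 deleted genes were called. For the pyruvate dehydrogenase complex and its kinases, 7 genes were tested and none was called. The largest value was that of the kinase gene *PKP2*, 0.40 ± 0.27 (adjusted p = 0.0864, limma). *URA3* and *HIS3*, deleted in the background of both strains compared, gave 0.04, -0.52 and 1.57 on 3 arrays and -0.35, 0.04, -0.86 and -0.09 on 4, on both sides of 0. Of 6 tested a-specific genes 1 was called, *STE2* at -0.50, and none of 6 meiotic genes was.

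A gene was called when its limma adjusted p was under 0.05, with p-values adjusted over all 4596 ORFs measured in both replicates. Called genes numbered 649: 259 were higher in *ptc1 ptc6* (5.64% of those tested) and 390 were lower (8.49%). Most changes were under 2-fold. Of the higher genes 71 reached 2-fold, 109 lay between 1.5-fold and 2-fold and 79 lay under 1.5-fold. Of the lower genes 12 reached 2-fold, 192 lay between 1.5-fold and 2-fold and 186 lay under 1.5-fold. The median was 0.72 for the higher genes and -0.60 for the lower ones. Every array gave the same sign for 252 of the 259 higher genes and for 372 of the 390 lower genes. Without replicate 1 the limma fit called 378 genes and without replicate 2 it called 136. With each array centred on its median the split was 303 higher and 264 lower. Whether the replicates shared a wt culture is not stated. The p-values rest on 1 spread fitted jointly to the *ptc1 ptc6* and *ptc6* replicates, and on these samples only. A fit with 1 *ptc1 ptc6* replicate holds no spread of *ptc1 ptc6*, so its calls do not measure how the replicates agree.

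**Figure D1:**
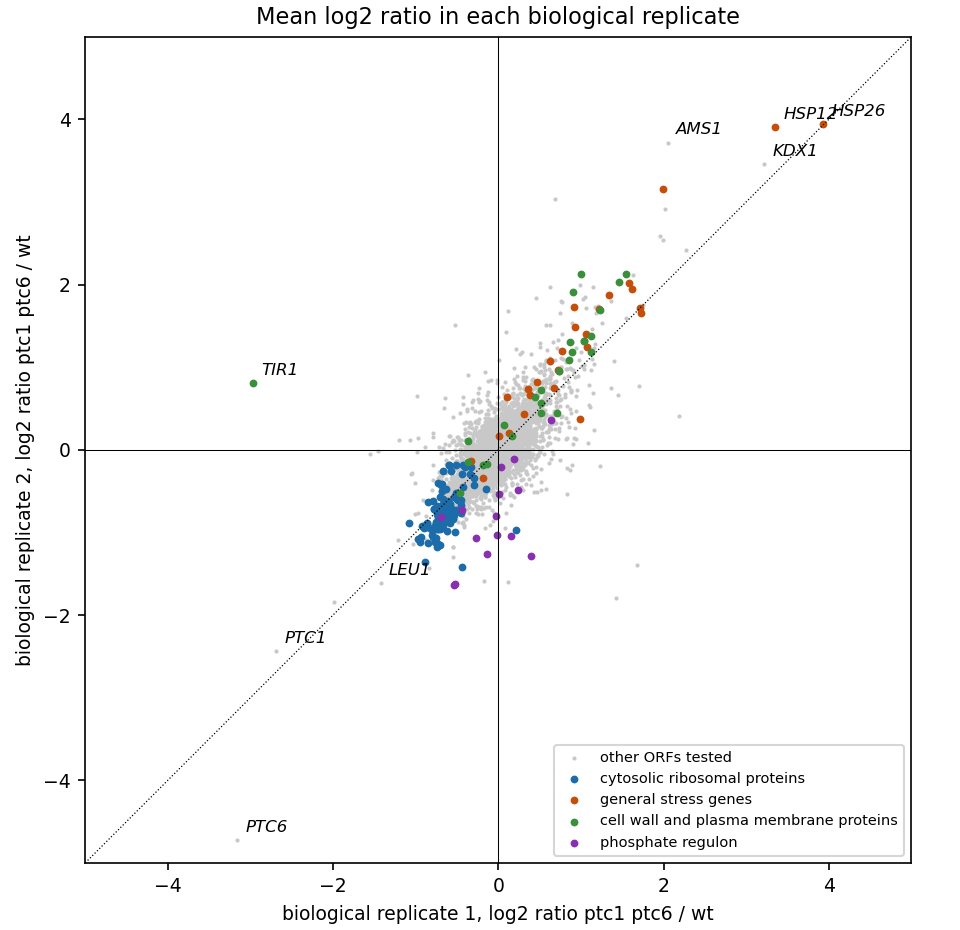
Mean log2 ratio of *ptc1 ptc6* over wt in biological replicate 1 (horizontal axis) and biological replicate 2 (vertical axis) for each ORF tested. Points are ORFs, in grey unless they belong to a coloured gene list, and the dotted diagonal marks equal values. The coloured lists are cytosolic ribosomal proteins, general stress genes, cell wall and plasma membrane proteins, and the phosphate regulon, called or not. *HSP26*, *HSP12* and *KDX1* lie far to the upper right and *PTC1* and *PTC6* to the lower left.

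By the fold rule alone (a mean over arrays of at least 2-fold, with values on at least 2 of the 4 arrays), 80 of 4754 ORFs were higher (1.68%) and 14 were lower (0.294%). Both lists were short beside the called ones, and 9 of their ORFs had values in replicate 2 only and so could not be tested. *FMP33* (2.62 and 3.11 on experiments 3 and 4) and *GPG1* (2.18 and 2.55) were the highest of these. A further ORF, *YFL015C*, whose ORF lies next to *HSP12*, had 0.69 and 3.04 with Cy5 only and was not called. The names of these 3, and *PTC4*, were chosen after their values were seen.

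The highest called genes were a pair of small heat shock genes and a kinase-like gene. *HSP26* read 3.89, 3.98, 3.86 and 4.03, a mean of 3.94 ± 0.01, or 15.3-fold (adjusted p = 0.00653, limma). *HSP12*, whose product protects membranes, read 2.97, 3.73, 3.81 and 4.01, with a mean of 3.63 ± 0.39 (adjusted p = 0.000819, limma). All 4 arrays of each lay far above 0. *KDX1*, a catalytically inactive relative of the kinase Slt2, read 3.30, 3.13, 3.71 and 3.21, or 10.1-fold (adjusted p = 0.000931, limma). *AMS1*, the vacuolar alpha-mannosidase, had a wider spread at 2.36, 1.74, 2.48 and 4.96, with experiment 4 standing above the rest and a mean of 2.88 ± 1.18 (adjusted p = 0.0241, limma).

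**Figure D2:**
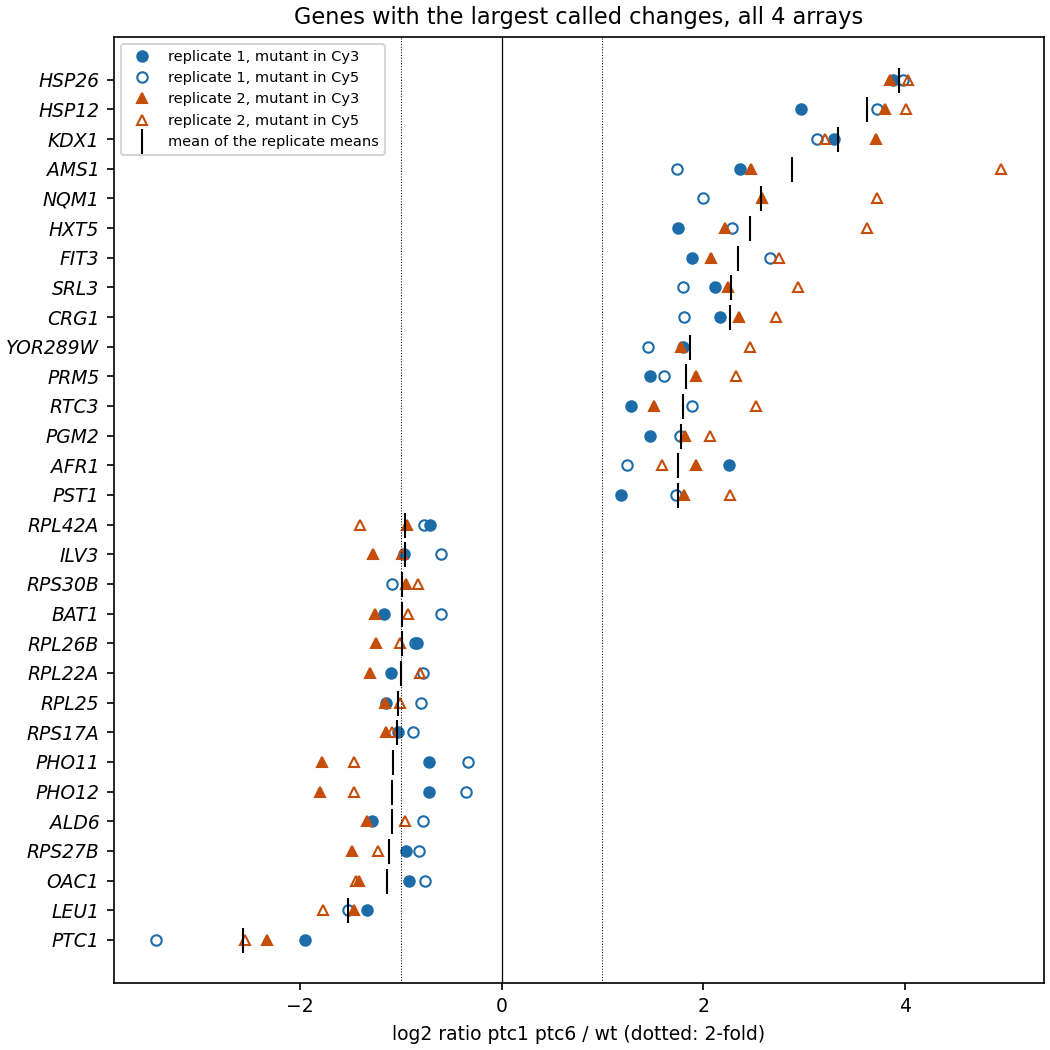
Log2 ratios of *ptc1 ptc6* over wt on each of the 4 arrays for the 15 called genes with the largest positive and the 15 with the largest negative means, among those with values on at least 3 arrays. Points are arrays, the vertical bar is the mean of the replicate means and dotted lines mark 2-fold. The spread among arrays was wide for *AMS1* and narrow for *HSP26*.

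General stress genes moved together. Of the 29 tested genes of the Msn2/Msn4 type, 19 were higher and none was lower, with a median of 0.98 against -0.05 for all ORFs tested. *NQM1*, a transaldolase relative, read 2.00, 2.59 and 3.73, and *SOL4*, a 6-phosphogluconolactonase of the pentose phosphate pathway, read 1.71, 1.50 and 1.93. Both were above 2-fold on each of the 3 arrays with a value. *RTC3*, *ECM4* and *MSC1* averaged 1.80 ± 0.31, 1.61 ± 0.38 and 1.69 ± 0.05. Not every stress gene followed, for *CTT1*, the cytosolic catalase, averaged -0.26 ± 0.11 and *USV1*, a zinc finger gene, -0.23 ± 0.14, neither called. The list had 16 higher calls from the Cy3 arrays alone, 21 from the Cy5 arrays alone, 19 from replicate 2 alone and 11 from replicate 1 alone.

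Heat shock genes as a group did not share this. All ORFs tested gave 5.64% higher and 8.49% lower calls. Of 25 tested chaperone genes 3 were higher (12%), all of them also general stress genes, and 2 lower (8%), with a median of -0.09. From replicate 2 alone 5 were higher and 1 lower, and from replicate 1 alone 3 and none. Beside *HSP26* and *HSP12* the higher member was *SSE2*, a nucleotide exchange factor of Hsp70, at 1.16 ± 0.13 (1.42, 0.72, 1.55 and 0.94). Its relative *SSE1* fell to 0.679 of wt, at -0.56 ± 0.03 (adjusted p = 0.027, limma). *SSB1*, an Hsp70 that works on ribosomes, fell to 0.637 of wt, at -0.65 ± 0.32, and its near-identical partner *SSB2* averaged -0.58 ± 0.29 without a call. Such partners share probe sequence, so their values are not independent. None of the 16 tested genes of the unfolded protein response and none of 31 proteasome genes was called.

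Genes of carbohydrate stores and hexose uptake were among the higher ones, beside shares of 5.64% higher and 8.49% lower over all ORFs tested. Some, such as *PGM2*, *GLK1* and *HXK1*, are also in the general stress list, so their calls are counted there too. *PGM2*, the main phosphoglucomutase, read 1.47, 1.77, 1.82 and 2.07 (1.78 ± 0.23) and *GLC3*, the glycogen branching enzyme, read 1.61, 1.47, 1.71 and 1.48 (1.57 ± 0.04). *GIP2*, which targets a phosphatase to glycogen synthase, averaged 1.47 ± 0.33 from Cy5 arrays only. Of 21 tested genes of glycogen and trehalose metabolism, 5 were higher and *PCL8*, a cyclin of the Pho85 kinase, was lower at -0.41 ± 0.07. The list median was 0.30, and each replicate alone gave 3 higher calls and none lower. *HXT5*, a hexose transporter of slow growing cells, read 1.75, 2.28, 2.21 and 3.62, or 5.53-fold (adjusted p = 0.0154, limma). Of 16 tested hexose genes 5 were higher, among them the kinases *GLK1* (1.23 ± 0.23) and *HXK1* (1.21 ± 0.40), and none was lower. Higher calls numbered 3 from replicate 2 alone and 1 from replicate 1 alone.

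In glycolysis and fermentation the called genes were minor or regulatory forms. However, 6 glycolytic genes lay at the shared values on all 4 arrays and could hardly be called. All ORFs tested gave 5.64% higher calls, and of 20 tested genes of this list 3 were higher (15%). They were *PFK26* (1.28 ± 0.72) and *FBP26* (1.10 ± 0.09), which make and break the regulator fructose 2,6-bisphosphate, and *PYK2* (0.91 ± 0.10), the lesser pyruvate kinase. The main glycolytic genes include those at the shared array values, and the list's array medians were -0.24, -0.16, 0.33 and -0.62. In the pentose phosphate pathway *RKI1* and *TKL1* were lower, at -0.86 ± 0.18 and -0.58 ± 0.03, while their pathway neighbours *NQM1* and *SOL4* were higher.

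Over all ORFs tested 5.64% were higher and 8.49% lower. Of 24 tested genes of the TCA and glyoxylate cycles and gluconeogenesis, 6 were higher (25%) and 1 was lower (4.17%). Higher calls fell to 5 with replicate 2 alone and 1 with replicate 1 alone. *CIT2*, the peroxisomal citrate synthase, read 1.13, 1.15, 1.91 and 2.04 and *IDP2*, the cytosolic isocitrate dehydrogenase, read 0.89, 0.85 and 2.23. *IDH1*, of the mitochondrial isocitrate dehydrogenase, averaged 0.84 ± 0.36. Respiratory chain genes gave 1 call in each direction among 26 tested (3.85% each), and both were forms of the same cytochrome oxidase subunit. *COX5B*, the form known from low oxygen, read 0.55, 0.34, 0.56 and 0.64 and was higher, while *COX5A*, the aerobic form, read -0.24, -0.55, -0.61 and -0.56 and was lower. Of 56 mitochondrial ribosomal protein genes 1 was called, *MRPS16* at 0.57 ± 0.14.

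Genes for wall proteins made up a large higher group. Of 25 tested genes for wall and plasma membrane stress proteins 15 were higher and 1 lower, with a median of 0.62. *PST1*, a wall protein known to rise on wall damage, read 1.19, 1.73, 1.81 and 2.26, and *PRM5*, a membrane protein of the same response, read 1.47, 1.61, 1.93 and 2.33. *PIR3*, a covalently bound wall protein, averaged 1.57 ± 0.80. The lower gene was *SUR7*, of plasma membrane eisosomes, at -0.50 ± 0.04. *TIR1*, a wall mannoprotein, was not called and differed between replicates, with -2.96 and 0.81 in replicates 1 and 2. This list had 10 higher calls from the Cy3 arrays alone, 15 from the Cy5 arrays alone, 13 from replicate 2 alone and 9 from replicate 1 alone.

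The enzymes that build the wall showed smaller changes, beside shares of 5.64% higher and 8.49% lower over all ORFs tested. Of 27 tested genes for making and cross-linking glucan and chitin, 9 were higher, none was lower and the median was 0.17, with 6 higher from replicate 2 alone and 2 from replicate 1 alone. *GSC2*, a glucan synthase subunit, read 1.15, 1.21, 1.61 and 1.69, with a mean of 1.41 ± 0.33. *CRH1*, which links chitin to glucan, averaged 1.30 ± 0.23, and *PCM1*, of the route to the chitin precursor, averaged 0.88 ± 0.17. In the signalling cascade itself 3 of 17 tested genes were higher, which were *KDX1*, the kinase gene *SLT2* (1.17, 1.17, 1.77 and 1.69) and *RLM1* (1.04, 0.98 and 0.96), the transcription factor that Slt2 activates. The sensor gene *MID2* averaged -0.57 ± 0.14 and the kinase gene *MKK1* -0.24 ± 0.01, neither called.

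Iron genes formed a further higher group, beside a share of 5.64% higher over all ORFs tested. Of 24 tested genes of the iron regulon 8 were higher and none was lower, and the median was 0.25. *FIT3* and *FIT2*, wall mannoproteins that hold siderophore iron, averaged 2.35 ± 0.10 (1.89, 2.67, 2.08 and 2.75) and 1.42 ± 0.57 (0.91, 1.14, 1.70 and 1.95). *ARN2*, a siderophore transporter, read 1.45, 1.28, 1.95 and 1.65, with a mean of 1.58 ± 0.30 (adjusted p = 0.00973, limma). Members without a call included the reductase gene *FRE1* at -0.17 ± 0.11, the biotin transporter gene *VHT1* at -0.26 ± 0.03 and *CTH1*, an mRNA-binding protein gene, at -0.25 ± 0.30. In copper and zinc homeostasis *PCA1*, which encodes a metal pump, and *CUP2*, a copper sensing transcription factor, averaged 1.49 ± 0.71 and 1.06 ± 0.43 and were higher. The metallothionein gene *CUP1-1*, which has a near-identical copy, read -1.22 and -1.09 with Cy3 only and was lower, and *ZPS1* averaged -0.53 ± 0.23.

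Nitrogen and vacuolar genes were higher too. Of 19 tested genes under nitrogen catabolite repression 8 were higher, none was lower and the median was 0.44. Replicate 2 by itself gave 5 higher calls and replicate 1 gave 3, and the Cy3 and Cy5 arrays alone gave 4 and 11. *PUT1*, of proline use, *UGA2*, of 4-aminobutyrate use, and *MEP2*, an ammonium permease, averaged 1.24 ± 0.65, 1.11 ± 0.03 and 1.09 ± 0.20. *GLN1*, glutamine synthetase, averaged -0.31 ± 0.18 and was not called. Among 33 tested genes of autophagy and vacuolar hydrolases 11 were higher and none was lower, with a median of 0.39. Replicate 2 alone gave 9 higher calls and replicate 1 alone 3, and the Cy3 and Cy5 arrays alone gave 6 and 11. Beside *AMS1*, *ATG8*, the ubiquitin-like protein of the autophagosome membrane, read 1.21, 1.47 and 2.01, and *PRB1*, vacuolar proteinase B, averaged 0.96 ± 0.17. *ATG22*, a vacuolar amino acid exporter gene, averaged -0.52 ± 0.13 without a call. All ORFs tested gave 5.64% higher and 8.49% lower calls. Of 23 tested genes of the protein kinase A and TOR list 3 were higher (13.0%) and 1 was lower (4.35%). Among the higher ones were *PDE1*, a cAMP phosphodiesterase gene, at 1.02 ± 0.43 and the kinase gene *YAK1* at 0.59 ± 0.03, and the lower one was *RAS1* at -0.75 ± 0.02. From replicate 2 alone 2 were higher and 1 was lower, and from replicate 1 alone none was called.

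**Figure D3:**
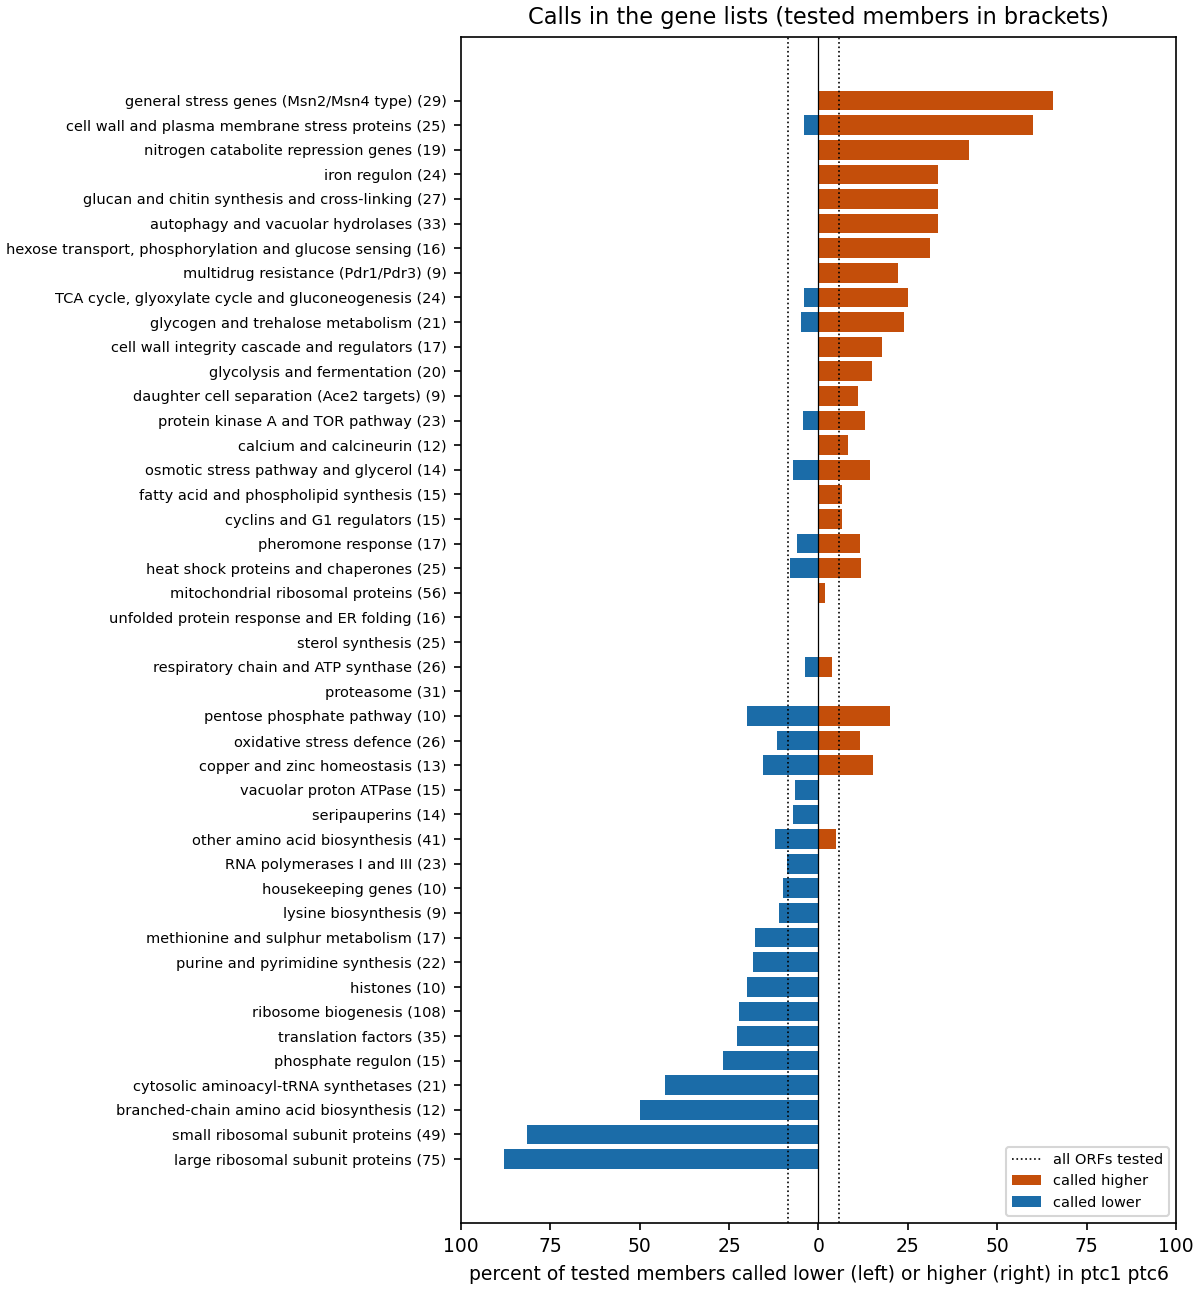
Share of the tested members called, for each gene list with at least 9 tested, as lower (bars to the left) or higher (bars to the right) in *ptc1 ptc6*, in percent, with the number tested in brackets. Over all ORFs tested the shares were 8.49% lower and 5.64% higher. Ribosomal protein lists reach furthest left and the general stress and wall protein lists furthest right.

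Ribosomal protein genes were the largest called group among the lists. Of 124 tested genes for cytosolic ribosomal proteins all had a mean below 0 and 106 were called lower, 27.2% of all lower calls. The change was small and even: the median was -0.71, the quartiles were -0.81 and -0.62, and 3 reached 2-fold by the fold rule. Large subunit genes gave 66 lower calls of 75 tested and small subunit genes gave 40 of 49. From replicate 2 alone these were 47 and 28, and from replicate 1 alone 7 and 6. With all 8 arrays scaled to a common median absolute deviation, a setting that left 14 calls in all, none of these genes was called, and 3 of the general stress genes were. *RPS27B* read -0.95, -0.82, -1.48 and -1.22, *RPS17A* read -1.03, -0.88, -1.15 and -1.09 and *RPL25* read -1.15, -0.80, -1.15 and -1.01, and these had the lowest means of the group. Of the 18 genes not called, 8 lay at the shared array values on at least 2 arrays. None of the 106 called genes did. Whether the shared values kept those 8 genes from a call was not tested.

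Most duplicated ribosomal protein genes moved as pairs. Of 45 pairs with both copies tested, 38 had both copies lower, 5 had 1 lower and 2 had neither, and the median gap between copies was 0.07. Copies are near-identical and cross-hybridise on such probes, so pairs are not independent. The widest gap was in *RPL22A* and *RPL22B*, at -0.99 ± 0.08 and -0.31 ± 0.23. Others were *RPS27B* and *RPS27A*, at -1.12 and -0.53 ± 0.11, and *RPS7A* and *RPS7B*, at -0.92 ± 0.00071 and -0.36 ± 0.10. The names *RPL22B*, *RPS27A* and *RPS7B* were chosen after their values were seen.

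The rest of the translation machinery was lower by less, and its calls differed by dye. Of 108 tested ribosome biogenesis genes 24 were lower and none was higher, with a median of -0.31. The array medians were -0.10 and -0.13 with the mutant in Cy3, against -0.40 and -0.61 with the mutant in Cy5. From the Cy3 arrays alone 1 gene was lower and 3 were higher, and from the Cy5 arrays alone 59 were lower. From replicate 2 alone 4 were lower and from replicate 1 alone none was. *NOP14*, of small subunit assembly, is an example, at -0.10, -1.14, 0.03 and -1.30. It was called lower on the mean of -0.63 ± 0.01, although neither Cy3 array was far from 0. *ECM1*, of ribosome export, averaged -0.71 ± 0.18 and read -0.42, -0.73, -0.61 and -1.06. The ribosomal protein genes themselves differed less by dye, with 55 and 29 lower calls for large and small subunit genes from Cy3 alone and 57 and 37 from Cy5 alone.

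Translation factors and tRNA synthetases also gave fewer calls with the mutant in Cy3. Of 35 tested factors 8 were lower, 3 from replicate 2 alone and none from replicate 1 alone. They were 1 from Cy3 alone and 10 from Cy5 alone, with array medians of -0.33, -0.30, -0.25 and -0.51. *EFB1*, of elongation factor 1, *CDC33*, the cap-binding protein, and *TIF4631*, its scaffold, averaged -0.64 ± 0.03, -0.62 ± 0.12 and -0.61 ± 0.16. Of 21 tested synthetase genes 9 were lower, 1 from Cy3 alone and 11 from Cy5 alone, and none from either replicate alone. *CDC60* and *KRS1*, which charge the leucine and lysine tRNAs, averaged -0.58 ± 0.08 and -0.54 ± 0.03. Of 23 genes for RNA polymerases I and III 2 were lower (8.70%), near the 8.49% of all ORFs tested, and *RPC31* averaged -0.50 ± 0.05. A fit over all 8 arrays, with the replicate as a random block, called 48 biogenesis, 20 factor and 16 synthetase genes lower. With a dye term as well, these counts were 44, 17 and 15. The fitted correlation between the arrays of a replicate was -0.0855 without the dye term and 0.138 with it. These fits thus weighed the arrays of a dye swap nearly as separate replicates, so their larger counts do not make the calls firmer. Whether the dye accounts for the calls was not tested.

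**Figure D4:**
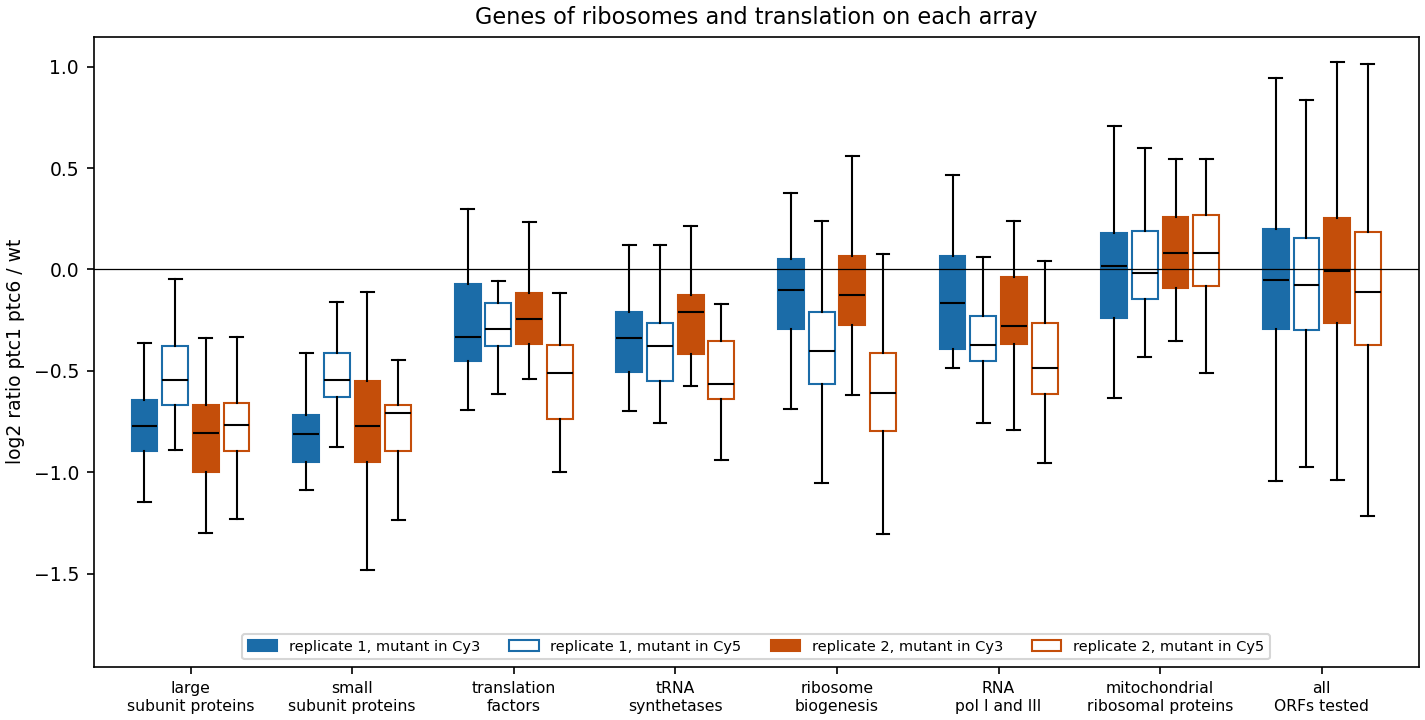
Log2 ratios of *ptc1 ptc6* over wt on each array for the translation gene lists and for all ORFs tested. Boxes are quartiles with the median as a line and whiskers to 1.5 interquartile ranges, filled by array. Ribosomal protein genes lie below 0 on all 4 arrays, while ribosome biogenesis genes lie lower on the Cy5 arrays than on the Cy3 arrays.

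Genes for branched-chain amino acids fell most among the biosynthetic lists. Of 12 tested genes 6 were lower, none was higher and the median was -0.68, with 7 lower from replicate 2 alone and 1 from replicate 1 alone. *LEU1*, isopropylmalate isomerase of leucine synthesis, read -1.33, -1.52, -1.46 and -1.77, a fall to 0.349 of wt (adjusted p = 0.027, limma). *OAC1*, a mitochondrial carrier that exports an intermediate of leucine synthesis, read -0.92, -0.76, -1.42 and -1.44. *BAT1*, the mitochondrial branched-chain aminotransferase, averaged -0.99 ± 0.15, while its cytosolic relative *BAT2* averaged 0.27 ± 0.24 and was not called. *ILV3*, dihydroxyacid dehydratase, averaged -0.96 ± 0.24. Both strains compared lacked *LEU2* and grew in rich medium.

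Other biosynthetic lists had fewer lower genes, beside a share of 8.49% lower over all ORFs tested. In methionine and sulphur metabolism 3 of 17 were lower, *SAM1* and *SAM2*, both S-adenosylmethionine synthetases, at -0.89 ± 0.06 and -0.44 ± 0.08, and the methionine synthase gene *MET6* at -0.81 ± 0.28. *MET3*, ATP sulphurylase, averaged 0.60 ± 0.29 (adjusted p = 0.0505, limma). Of 22 genes of purine and pyrimidine synthesis 4 were lower with a median of -0.48, *IMD4*, of GMP synthesis, at -0.79 ± 0.07. Of 41 genes for other amino acids 5 were lower, led by *GLT1*, glutamate synthase, at -0.74 ± 0.07, and 2 were higher, *ARG1* at 0.65 ± 0.05 and *SER3* at 0.51 ± 0.13. Of 9 lysine genes *LYS4* alone was called, at -0.68 ± 0.27. From replicate 2 alone the lower calls for sulphur, purine and pyrimidine, and other amino acid genes were 2, 3 and 1, and from replicate 1 alone 1, 0 and 0.

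Phosphate genes were lower mainly in replicate 2. Of 15 tested genes 4 were lower, with a median of -0.45, but the replicate medians were -0.01 and -0.81 in replicates 1 and 2. *PHO11* and *PHO12*, near-identical acid phosphatase genes, had replicate means of -0.53 and -1.62 and of -0.53 and -1.63. *PHO3*, a further acid phosphatase, had -0.70 and -0.81, and *PHO89*, a phosphate transporter, had 0.18 and -0.11 and was not called. Replicate 2 stood below replicate 1 for this list on both of its arrays. Without replicate 1, 10 of the genes were lower, and without replicate 2, none was. The cause was not tested.

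**Figure D5:**
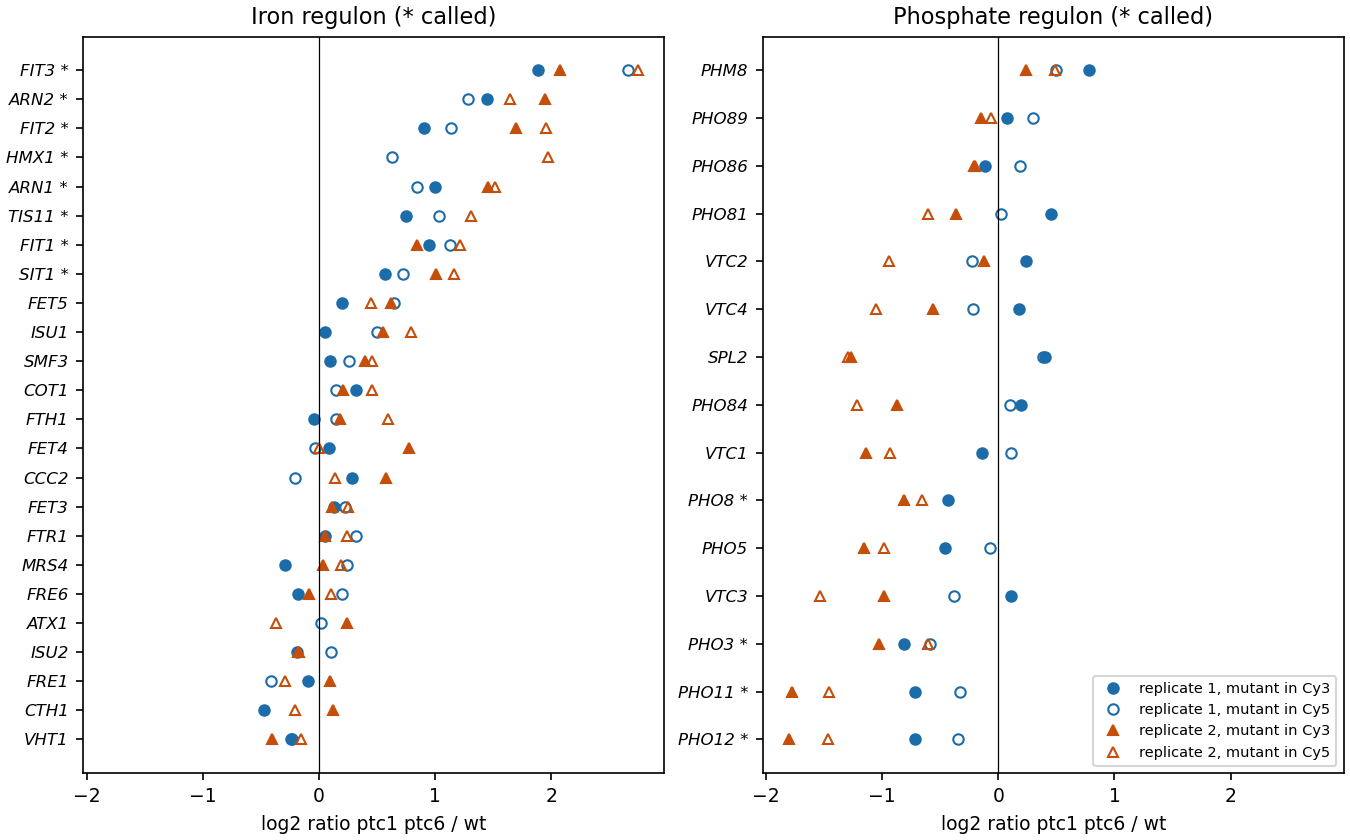
Log2 ratios of *ptc1 ptc6* over wt on each of the 4 arrays for members of the iron regulon and of the phosphate regulon. Points are arrays, members are ordered by their mean and an asterisk marks a call. The 8 called iron genes lie above 0 on every array with a value, and the medians of the phosphate genes were -0.01 in replicate 1 and -0.81 in replicate 2.

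Further genes were among the largest changes. *YAR068W*, of unknown function, read -1.99 and -1.84 on experiments 2 and 3, with a mean of -1.91 ± 0.10 (adjusted p = 0.00504, limma). *ALD6*, cytosolic aldehyde dehydrogenase, read -1.28, -0.78, -1.33 and -0.96, all 4 arrays below 0. *GFD2* had -0.55, -1.34 and -1.25 on 3 arrays and *CYB5*, cytochrome b5, a member of the sterol list, had -1.05 and -1.15 in replicate 2 alone, so it was not tested. On the higher side *SRL3*, a G1 regulator, averaged 2.27 ± 0.45 (2.12, 1.80, 2.24 and 2.94), *CRG1*, a methyltransferase gene, averaged 2.27 ± 0.39, and *AFR1*, of adaptation to pheromone, averaged 1.75 ± 0.01 (2.25, 1.24, 1.93 and 1.59).

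The changes under 2-fold with the lowest adjusted p included genes with like values on all arrays. *TGL2*, a mitochondrial lipase, read 0.85, 1.00, 0.92 and 0.84 (adjusted p = 0.0157, limma), and *BXI1* read 0.86, 0.98, 0.74 and 1.15. *AGP1*, an amino acid permease, and *ALD3*, an aldehyde dehydrogenase of the stress response, averaged 0.83 ± 0.05 and 0.98 ± 0.30. On the lower side *OPT1*, an oligopeptide transporter, read -0.69, -0.67, -0.83 and -0.73 (adjusted p = 0.027, limma), with all 4 values within a narrow range. *STM1*, a ribosome-associated protein gene, had -0.70 and -0.80 from Cy5 only. *RPL11B* and *RPL16B* averaged -0.79 ± 0.17 and -0.87 ± 0.02.

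Signalling, cell cycle and membrane lists held few calls, and from either replicate alone each had 0 to 3 in a direction. In the osmotic stress list *GCY1*, a glycerol dehydrogenase gene, and *GPP2*, glycerol phosphatase, were higher at 1.39 ± 0.20 and 0.68 ± 0.21, *GPP1* was lower at -0.56 ± 0.13, and *HOG1* averaged 0.33 ± 0.0032 without a call, of 14 tested. Of 17 pheromone genes *AFR1* and *PRM4* (0.54 ± 0.17) were higher and *FUS2* (-0.70 ± 0.01) was lower. In the calcium list the calcineurin subunit gene *CMP2* was higher at 0.40 ± 0.08, and its paralogue *CNA1* averaged -0.47 ± 0.02 without a call. The drug pump genes *PDR5* and *PDR10* were higher at 1.04 ± 0.11 and 0.62 ± 0.12, of 9 tested. Of 10 histone genes *HTA2* (-0.67 ± 0.23) and *HHT2* (-0.55 ± 0.14) were lower. Oxidative stress genes split, with *GTT1*, *TSA2* and *PRX1* higher at 0.84 ± 0.17, 0.57 ± 0.27 and 0.51 ± 0.04, and *GPX2*, *TSA1* and *GRX4* lower at -0.52 ± 0.16, -0.48 ± 0.01 and -0.45 ± 0.02. None of 25 sterol genes was called. Of 15 vacuolar proton ATPase genes *VMA8* was lower at -0.44 ± 0.13, and of 9 daughter cell separation genes *DSE4* was higher at 0.49 ± 0.01. Of 14 seripauperin genes *PAU23* was lower at -0.45 ± 0.03, and of 15 cyclin and G1 genes *SRL3* alone was called. Among 10 housekeeping genes *SPT15*, the TATA-binding protein gene, was lower at -0.47 ± 0.07, and *ACT1* averaged -0.12 ± 0.12 without a call. *OPI3*, of phosphatidylcholine synthesis, at 0.93 ± 0.05, was the only call among 15 genes of fatty acids and phospholipids. Beside these counts, 5.64% of all ORFs tested were higher and 8.49% lower.

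Of the 649 called ORFs 346 were in none of the lists. Of all called ORFs 41 were not in the gene table, 34 lower and 7 higher, of 248 such ORFs tested. The shares over all ORFs tested were 8.49% lower and 5.64% higher. Of the 34 lower, 10 were numbered next to a ribosomal protein gene, but how many of the 248 were so numbered was not counted. Double-stranded probes do not separate strands, so signal from a neighbouring or antisense transcript cannot be told apart. *YJL188C* and *YDL038C* are of this kind of unmatched name, at -0.94 ± 0.04 and -0.90 ± 0.16.

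The difference between *ptc1 ptc6* and *ptc6* was tested in the same limma model over 4361 ORFs, with each mutant set against wt on its own arrays. *ptc1 ptc6* was higher for 7 genes (0.161%) and lower for 2 (0.0459%). These counts and the 649 against wt are not alike. A difference of 2 means has a wider error and also holds the *ptc6* values, and why fewer genes passed was not tested. These 9 calls became 155 and 67 without replicate 1 or 2 of *ptc1 ptc6*, and 3 and 0 without replicate 1 or 2 of *ptc6*. *FIT3* had replicate means of 2.28 and 2.41 in *ptc1 ptc6*, against -1.11 and -1.46 in *ptc6*, a difference of 3.63 (adjusted p = 0.00201, limma). For *ARN2* they were 1.37 and 1.80 in *ptc1 ptc6*, against -0.63 and -1.03 in *ptc6*. Both iron genes thus lay above wt in *ptc1 ptc6* and below it in *ptc6*. *HSP12* had 3.35 and 3.91 in *ptc1 ptc6*, against 0.11 and 0.25 in *ptc6*, a difference of 3.45 (adjusted p = 0.00469, limma). *TIS11*, an mRNA-binding protein gene of the iron response, had 0.89 and 1.31 in *ptc1 ptc6*, against -1.43 and -1.11 in *ptc6*. *MSC1* and *BDH2* differed by 1.91 and 1.51 and *AFR1* by 1.92, and *YAR068W* by -2.08. *TIS11* and *BDH2* were chosen after their values were seen. List medians, not tested as sets, were 0.05 in *ptc6* and -0.71 in *ptc1 ptc6* for large ribosomal subunit genes. They were 0.03 and 0.98 for general stress genes, and 0.04 and 0.09 for mitochondrial ribosomal protein genes.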

How the data were processed

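Total RNA from log-phase cultures of each mutant and of wt was labelled by an indirect dUTP method and hybridised on 2-colour arrays of PCR-amplified ORFs. The deposited values are log2 ratios of mutant over wt per ORF and array, made by the authors with GenePix Pro and the GEPAS pre-processing tool after leaving out spots under 120 µm in diameter or under 150 fluorescence units. The base of the logarithm was taken as 2 from the 2-fold rule of the methods. The within-array normalization is not given in the sources used here. Arrays carry no read depth, so their number limits the precision.

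The values were used as deposited. The arrays of each dye swap share their RNA and were averaged to 1 replicate, giving 2 replicates of *ptc1 ptc6* and 2 of *ptc6*. limma 3.58.1 (R 4.3.3; lmFit and eBayes, two-sided against 0, Benjamini-Hochberg over all ORFs tested) was fitted on the whole table. The functions were tested on simulated data. Gene lists (46, and 4 marker lists) came from general knowledge, some corrected after values were seen, and members and lists were chosen with earlier results of these data known. Some genes are in several lists. The genes named are the deleted genes and the 2 ORFs on each side, the 20 largest called changes in each direction with values on at least 3 arrays, every ORF past 2-fold lower, the 10 lowest adjusted p under 2-fold in each direction, and the 3 highest and 3 lowest tested members of each list, of which the text gives a part and some are not reported here. Names for 5662 of 6212 ORFs came from the RefSeq gene table for strain S288C, used for names and neighbours only. Alternatives covered centring, scaling, filters, dyes, blocks and left-out replicates. Promoter sequences and motifs were not analysed here.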

Additional observations from a re-analysis of the deposited data

Results flagged for a closer look

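Experiment 1 of *ptc1 ptc6* held values for 4050 ORFs, far from the 4620 to 4710 of the other 3 arrays. For 3 named genes 1 of the 4 arrays lay far from the rest. *CMP2* had 0.62 on that array, against 0.30 to 0.35 on the others. *GTT1* had 1.20, against 0.68 to 0.77, and *ZPS1* had -0.091, against -0.70 to -0.64. Chance gives about 1 such case in 20 groups of 4, and 134 groups were searched, so about 6.7 would be found by chance.

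Differences between *ptc1 ptc6* and *ptc6*, tested as a contrast in limma, passed the adjusted threshold for 9 genes. Higher ratios in *ptc1 ptc6* than in *ptc6* were those of *FIT3*, with a log2 difference of 3.63, *HSP12* (3.45), *ARN2* (2.41), *TIS11* (2.37), *AFR1* (1.92), *MSC1* (1.91) and *BDH2* (1.51). *PTC1* (-2.78), present in *ptc6* cells, and *YAR068W* (-2.08) were lower.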

How the results depend on the processing

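Of the 649 genes called by limma, 5 changed sign with the Cy3 arrays only and 1 with the Cy5 arrays only. None did under the alternatives that kept both dyes. All 649 had the same sign in both replicate means, so those alternatives could hardly reverse a call. Calls numbered 14 with each array scaled to a common median absolute deviation, 415 from the Cy3 arrays and 885 from the Cy5 arrays. They numbered 1336 with the biological replicate as a random block over all 8 arrays, and 1186 with a dye term as well. Those fits weighed the arrays of a dye swap nearly as separate replicates. Leaving out 1 replicate gave 136 to 849. As a paired analysis, the replicate number as a fixed replicate block gave 782 calls, 589 of them among the 649. The numbers name biological replicates and no shared batch, and the deviations of same-numbered replicates of *ptc1 ptc6* and *ptc6* correlated with r = -0.21 across 4361 ORFs. Crossing the *ptc6* numbers, chosen after seeing the data, gave 1052 calls, and 482 for the difference from *ptc6*. With centred arrays 567 were called, 522 of them shared. The 9 calls of the difference from *ptc6* became 3 when scaled, 725 with the random block, 579 with the dye term, 268 with the replicate block, 41 from Cy5 alone, and 0 to 155 with 1 replicate left out. Chosen after seeing the data, a prior from tested ORFs gave 61 and scaling within each set 15. Past 2-fold, 94 ORFs became 55 when scaled, 61 with values on all 4 arrays, 165 from Cy5 alone, 53 with 2-fold in each replicate, and 96 to 169 with 1 replicate left out. *TIR1*, at -1.08 and not called, was 0.81 without replicate 1 and -2.96 without replicate 2. The causes were not tested. A lone replicate was assumed to vary like the others. Arrays without single-channel signal give no bound for dim or bright spots.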

Other observations

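Beside the ORFs tested, 305 had a value on 1 *ptc1 ptc6* array only, and 38 of these were past 2-fold on it. Medians of the 16 chromosomes lay between -0.09 and 0.06.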
